A study of Mus musculus with 10 samples.

Results

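The core circadian clock genes were followed in microglia, the resident macrophages of the brain, sorted from the hippocampus of 3xTg AD mice. The 10 genes are *Arntl*, *Clock*, *Per1*, *Per2*, *Per3*, *Cry1*, *Cry2*, *Nr1d1*, *Nr1d2* and *Dbp*, found by symbol among the 55453 rows of the table of read counts. The group was selected on measured values, because the level of *Per1* differed between libraries of GA-treated mice whose titles begin with 394 and those whose titles begin with 400. That contrast is therefore described below without a test for any gene. Each of the 10 genes passed the filter on low counts that 14481 genes passed.

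Circadian clocks run in nearly every cell as a loop of transcription and repression. CLOCK and BMAL1, the product of *Arntl*, bind E-box sequences together and activate the *Per*, *Cry*, *Nr1d* and *Dbp* genes, and the PER and CRY proteins return to the nucleus to repress them. The nuclear receptors encoded by *Nr1d1* and *Nr1d2* (REV-ERB alpha and beta) repress *Arntl*, while DBP acts on D-box sequences in output genes and in the *Per* genes. Because these RNAs cycle over the day, most of them with large amplitude in peripheral tissue, the time at which an animal is killed bears on their level. That time is not given in the sources used here, nor is the order in which the mice were processed.

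The mice were female, over 15 months old by the labels, and all of the 3xTg genotype: they carried mutated human transgenes for amyloid precursor protein, tau and presenilin 1 under a Thy1 promoter, which is active mainly in neurons. A group received glatiramer acetate (GA), a synthetic copolymer of amino acids used in multiple sclerosis, at 0.1 mg per injection, weekly for about 8 weeks by the labels and with an additional injection in the first week by the study's methods, and the control group received PBS. There were 5 libraries per group, and the labels do not say whether each came from 1 mouse, so that the spread between libraries may be partly technical. All 5 PBS libraries have titles beginning with 388, while 2 GA libraries begin with 394 and 3 with 400. What these prefixes stand for is not stated, and no prefix holds both treatments, so that treatment and prefix cannot be told apart.

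Levels are given as CPM, the read count of a gene scaled to a common library total after TMM normalization, with the SD over libraries. Library totals ran from 32332185 to 38764643 counts, and the clock genes were counted between 137 times (*Nr1d1*) and 2361 times (*Nr1d2*) in a library. The 7 microglial markers were all detected, with a sum of 48280 to 58320 CPM, whereas each of 6 neuronal, 6 lymphocyte and 5 erythroid markers averaged under 1 CPM. RNA of other brain cells was present in every library. The sums of 6 markers each were 246 to 354 CPM for astrocytes, 175 to 218 CPM for oligodendrocytes and 137 to 177 CPM for endothelial cells. PBS library 388_4 stood apart: it had the lowest microglial sum, 88.7 CPM of the sorting marker *Itgam* (CD11b) against 191 to 233 CPM in the other PBS libraries, and the highest sums of 6 markers of border-associated macrophages (246 CPM) and 5 of monocytes (83.6 CPM). In bulk samples, fewer cells of a type and less RNA per cell cannot be told apart. Over all genes, PBS library 388_5 stood apart as well: the chi-square per degree of freedom was 46.09 to 55.66 in pairs with 388_4, 32.91 to 50.89 in pairs of 388_5 with the others, and 14.03 to 30.19 in all other pairs. Mitochondrial genes took 0.180% of counts in 388_4 and 0.175% in 388_5, against 0.129% to 0.152% in the other libraries, and the part of this in their clock gene levels was not tested. The fold changes of *Per1*, *Per3* and *Nr1d1* are also given without 388_4.

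Sequences just before the transcription start are shown for *Per1*, on which the selection rests, and for *Per3* and *Cry1*, whose stretches each hold a pair of clock elements. They are the 250 bases before each start in RefSeq on the GRCm38.p6 build, written 5′ to 3′ on the strand of the gene, with positions counted back from -1, the last base before the start. Capitals mark letters that match an E-box (CACGTG), an E-prime box (CACGTT, or AACGTG when read on the other strand), a D-box (TTATGTAA or TTATGCAA) or the core of a cAMP response element (TGACGTC), each searched on both strands. *Per1* has a pair of RefSeq starts in this table, and the stretches before them lie at chr11:69098699-69098948 (upstream start) and chr11:69099902-69100151 (downstream start), both on the forward strand. The *Per3* stretch lies at chr4:151044666-151044915 and that of *Cry1* at chr10:85185055-85185304, both on the reverse strand.
Per1 upstream start: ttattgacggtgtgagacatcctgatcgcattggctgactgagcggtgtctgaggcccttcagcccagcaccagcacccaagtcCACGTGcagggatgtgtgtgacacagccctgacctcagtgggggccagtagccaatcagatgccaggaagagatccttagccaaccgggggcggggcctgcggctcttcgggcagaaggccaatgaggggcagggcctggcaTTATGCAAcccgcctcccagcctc
Per1 downstream start: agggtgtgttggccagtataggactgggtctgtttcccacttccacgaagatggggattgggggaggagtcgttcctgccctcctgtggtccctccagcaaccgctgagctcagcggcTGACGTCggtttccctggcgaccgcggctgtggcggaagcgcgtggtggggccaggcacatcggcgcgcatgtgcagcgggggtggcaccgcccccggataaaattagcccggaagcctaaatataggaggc
Per3: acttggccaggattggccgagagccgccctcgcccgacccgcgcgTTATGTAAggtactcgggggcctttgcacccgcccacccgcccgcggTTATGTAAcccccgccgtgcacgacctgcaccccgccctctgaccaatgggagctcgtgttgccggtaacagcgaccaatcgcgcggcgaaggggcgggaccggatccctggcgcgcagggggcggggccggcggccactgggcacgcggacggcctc
Cry1: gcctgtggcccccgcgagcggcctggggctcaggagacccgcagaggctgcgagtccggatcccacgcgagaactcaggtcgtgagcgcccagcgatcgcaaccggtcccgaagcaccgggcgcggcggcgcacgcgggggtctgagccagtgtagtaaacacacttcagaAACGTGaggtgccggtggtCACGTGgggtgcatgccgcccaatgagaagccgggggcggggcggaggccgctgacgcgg

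The upstream *Per1* start has an E-box at -166 to -161 and a D-box at -24 to -17. The downstream one has a cAMP response element core at -132 to -126 and no E-box. The *Per3* stretch holds a pair of D-boxes, at -205 to -198 and -158 to -151, and that of *Cry1* an E-box at -60 to -55 beside an E-prime box at -79 to -74. Among all 32851 windows of 300 bases in the RefSeq table (250 before to 50 after the start), 7.15% hold an E-box, 4.68% an E-prime box, 0.938% the D-box TTATGTAA, 0.743% the D-box TTATGCAA and 3.21% the response element core. The full palindrome TGACGTCA, in 1.79% of all windows and overlapping the core by construction, was in none of the 13 windows of the 9 members that matched, nor was the glucocorticoid receptor half-site AGAACA, which 19% of all windows hold. *Cry2* and *Nr1d1* windows each held an E-prime box, and 1 of the *Arntl* windows the element of REV-ERB and ROR receptors TAGGTCA, found in 2.61% of all windows, at 31 to 37 bases after the start. *Clock*, *Nr1d2* and *Dbp* windows held none of the letters searched, and *Per2* was not matched. A match is a description of the letters in a window, and binding was not measured.

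Compared per length of merged exons, *Nr1d2* was the most abundant clock gene in PBS microglia, at 10.6 ± 1.16 CPM per kb (SD, n = 5). *Cry1* followed at 4.86 ± 0.362 and *Dbp* at 3.91 ± 0.524 CPM per kb, and the PBS libraries did not overlap between *Nr1d2* and *Cry1* nor between *Cry1* and *Dbp*. Below *Dbp*, the order was *Per1* (3.55 ± 1.69 CPM per kb), *Clock* (3.40 ± 0.166), *Cry2* (3.31 ± 0.720), *Arntl* (2.87 ± 0.182), *Per3* (2.42 ± 0.543), *Nr1d1* (2.36 ± 1.05) and *Per2* (1.55 ± 0.454). From *Dbp* downwards each gene overlapped its neighbour in the order, and *Per1* was above *Clock* in 1 of the 5 PBS libraries only, 388_4.

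The libraries address whether GA changes RNA levels in hippocampal microglia, and for the clock genes GA was compared with PBS in a fit over all 14481 genes. None of the 10 clock genes passed an adjusted *P* of 0.05 (edgeR's quasi-likelihood test with Benjamini-Hochberg adjustment), beside 0% of all genes tested. None had an unadjusted *P* under 0.05 either, against 5.75% of all genes, and none had GA libraries wholly outside the PBS libraries, against 0.891% of all genes. With DESeq2, the count of genes called was 2 over all genes and 0 among the clock genes. Of the 10 clock genes, 1 (*Per3*) had an unadjusted *P* under 0.05 with DESeq2, against 1245 of the 27495 genes it tested. The fitted log2 fold change was below 0 for 9 of the 10 clock genes, with a median of -0.13, where 49.9% of all genes lay below 0. These genes act on each other and share the libraries, so that the 9 directions are not independent of one another. Without PBS library 388_4, 8 of the 10 lay below 0, with a median of -0.14. With the GA libraries of prefix 394 alone it was 7 of 10 (median -0.16), and with those of prefix 400 alone also 7 of 10 (median -0.20). With the number at the end of the title as a replicate block it was 7 of 10 (median -0.086). Without GA library 400_3 it was 9 of 10 (median -0.20). The sum of 7 neutrophil markers, all detected, was 157, 35.6, 435, 281 and 354 CPM in the PBS libraries and 40.6, 162, 9.68, 17.8 and 102 CPM in the GA libraries (394_1, 394_2, 400_1, 400_2 and 400_3). It was thus mostly lower with GA, with overlap, and its part in the clock gene levels was not tested.

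**Figure D1:**
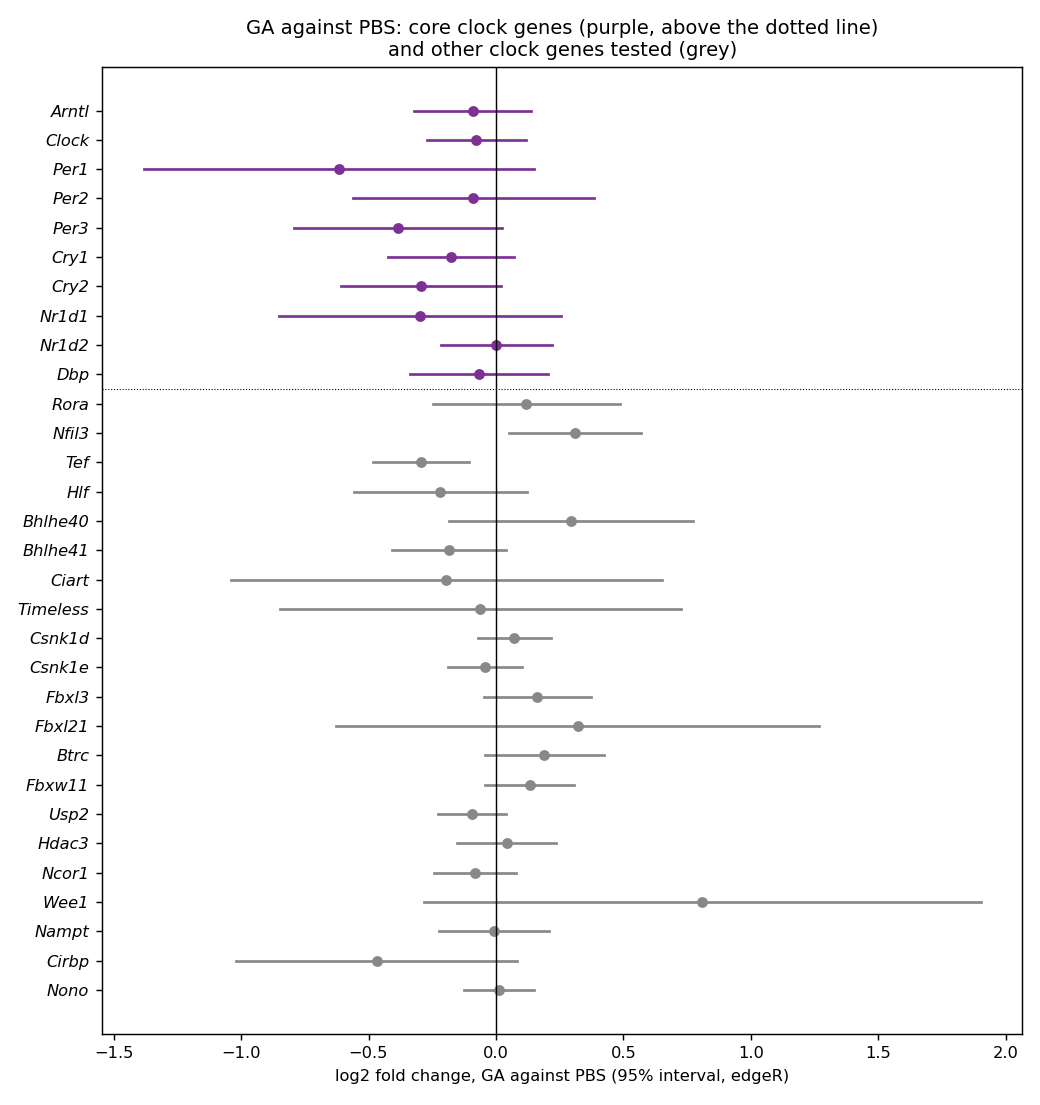
Log2 fold change of GA against PBS (horizontal axis) for the 10 core clock genes (purple, upper block) and the 21 other clock genes tested (grey, lower block), with 95% intervals from edgeR, n = 5 libraries per group. All 10 intervals of the core genes include 0, the widest being that of *Per1* from -1.38 to 0.15, and in the lower block the intervals of *Nfil3* and *Tef* do not.

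On the log2 scale, the activators had the smallest spread of the members among the PBS libraries. *Arntl*, which encodes BMAL1 (ENSMUSG00000055116.8, chr7:113207465-113314126, forward strand, GRCm38), had 19.8, 23.0, 22.1, 20.6 and 22.5 CPM in PBS libraries 388_1 to 388_5, 20.9 and 24.1 CPM in GA libraries 394_1 and 394_2, and 16.2, 19.5 and 20.7 CPM in 400_1 to 400_3. The 3 GA libraries of prefix 400 thus lay below both of prefix 394, and 2 GA libraries lay below every PBS library. The mean was 21.6 ± 1.37 CPM with PBS and 20.3 ± 2.86 CPM with GA (SD, n = 5 each), a log2 fold change of -0.09 (95% interval -0.32 to 0.14, edgeR adjusted *P* = 0.949). In its antisense overlap with *Gm45355*, only 33 exonic bases are shared, and *Gm45355* was at or under 0.124 CPM.

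*Clock*, the partner of *Arntl* (ENSMUSG00000029238.11, chr5:76209868-76304792, reverse strand), also had the libraries of prefix 400 below both of prefix 394. It had 43.5, 46.5, 48.9, 48.8 and 45.7 CPM in the PBS libraries, 49.1 and 48.3 CPM in those of prefix 394, and 35.9, 45.6 and 42.3 CPM in those of prefix 400. Library 400_1 had the lowest level of both activators, and both libraries of prefix 394 were in the upper part of the PBS range or above it for *Clock*. With means of 46.7 ± 2.27 CPM (PBS) and 44.2 ± 5.41 CPM (GA; SD, n = 5 each), the log2 fold change was -0.08 (95% interval -0.27 to 0.12, edgeR adjusted *P* = 0.948).

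*Per1*, a repressor of the loop whose transcription is also known to respond within minutes to cAMP signalling and to glucocorticoids, had the widest range of the members over all 10 libraries, which include the contrast it was chosen on. *Per1* (ENSMUSG00000020893.17, chr11:69095217-69109960, forward strand) had 16.4, 16.8, 16.4, 36.8 and 13.6 CPM in PBS libraries 388_1 to 388_5. It had 20.7 and 21.3 CPM in GA libraries 394_1 and 394_2, and 5.66, 8.89 and 8.67 CPM in 400_1, 400_2 and 400_3. Each library of prefix 400 was below every PBS library, while both libraries of prefix 394 were above 4 of the 5 PBS libraries. The lowest library, 400_1, had 196 *Per1* reads and the highest, 388_4, had 1188, a 6.502-fold range in CPM.

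The mean *Per1* level was 19.99 ± 9.49 CPM with PBS and 13.1 ± 7.38 CPM with GA (SD, n = 5 each). The difference was within the spread between libraries, with a log2 fold change of -0.62 (95% interval -1.38 to 0.15, edgeR adjusted *P* = 0.895) and *P* = 0.167 in a two-sided exact permutation test. The smallest *P* that the test can give with 5 against 5 is 0.00794. Without PBS library 388_4, the log2 fold change was -0.28 (edgeR adjusted *P* = 0.998), and without 388_5 it was -0.72 (edgeR adjusted *P* = 0.660). Fits with the GA libraries of 1 prefix only placed *Per1* on either side of PBS, at a log2 fold change of 0.08 for prefix 394 and -1.36 for prefix 400, as the choice of the gene implies.

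*Per2* and *Per3*, the other genes of the Period family, did not follow *Per1* across the GA libraries. *Per3* (ENSMUSG00000028957.12, chr4:151003652-151044665, reverse strand) had 23.5, 21.6, 21.6, 31.8 and 17.8 CPM in the PBS libraries, 11.2 and 23.2 CPM in those of prefix 394, and 21.7, 15.2 and 17.6 CPM in those of prefix 400. Its lowest level was in 394_1, a library where *Per1* was high, and its highest in 388_4, the library that was also highest in *Per1*. The mean was 23.2 ± 5.21 CPM with PBS and 17.8 ± 4.88 CPM with GA (SD, n = 5 each), with 3 GA libraries below every PBS library. The log2 fold change of *Per3* was -0.39 (95% interval -0.79 to 0.02, edgeR adjusted *P* = 0.872), and the exact permutation test gave *P* = 0.111. Without PBS library 388_4 the log2 fold change of *Per3* was -0.25, and without 388_5 it was -0.46. Over the alternative analyses the adjusted *P* of *Per3* ran from 0.626 to 1.0.

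*Per2* (ENSMUSG00000055866.9, chr1:91415982-91459324, reverse strand) was the least abundant of the 3 *Per* genes per kb. It ran from 6.28 CPM (388_2) to 13.1 CPM (388_3) with PBS and from 5.75 CPM (394_1) to 11.01 CPM (400_3) with GA. The groups overlapped almost fully, and library 388_4, high in *Per1* and *Per3*, was in the lower part of the PBS range at 7.16 CPM. The log2 fold change was -0.09 (95% interval -0.56 to 0.38, edgeR adjusted *P* = 0.976), an interval that still includes changes of the size fitted for *Per3*.

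The cryptochromes, which bind the PER proteins and repress CLOCK and BMAL1, each had all 5 GA libraries below the PBS median. This was not particular to them, as *Dbp* among the members and *Tef* among the other clock genes had it too. The share of all genes with this order is not given here. *Cry1* (ENSMUSG00000020038.10, chr10:85131700-85185064, reverse strand) ran from 14.9 to 17.8 CPM with PBS and from 11.4 to 16.3 CPM with GA, and 3 GA libraries lay below every PBS library. Its means were 16.2 ± 1.21 and 14.4 ± 1.90 CPM (SD, n = 5 each), the log2 fold change was -0.18 (95% interval -0.42 to 0.07, edgeR adjusted *P* = 0.896) and the exact permutation test gave *P* = 0.0952.

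*Cry2* (ENSMUSG00000068742.11, chr2:92403646-92434043, reverse strand) was set apart by 1 low PBS library. Its PBS values were 23.8, 13.3, 22.5, 24.6 and 20.4 CPM, and its GA values were 16.6, 16.7, 19.3, 17.3 and 15.4 CPM in the order 394_1, 394_2, 400_1, 400_2 and 400_3. The 5 GA libraries lay between the lowest PBS library, 388_2, and the other 4. The log2 fold change of *Cry2* was -0.29 (95% interval -0.61 to 0.02, edgeR adjusted *P* = 0.872), and without 388_2 it was -0.42 (edgeR adjusted *P* = 0.746). Its exons share 295 bases with the antisense *D930015M05Rik*, which was at or under 0.248 CPM.

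*Nr1d1*, the REV-ERB alpha gene (ENSMUSG00000020889.11, chr11:98767932-98775333, reverse strand), was high in the same PBS library as *Per1* and *Per3*. It had 4.82, 7.26, 4.89, 12.7 and 6.58 CPM in the PBS libraries, 4.11 and 7.52 CPM in those of prefix 394, and 5.72, 5.85 and 6.28 CPM in those of prefix 400. Apart from 388_4, the groups overlapped over nearly their whole range. The log2 fold change was -0.30 (95% interval -0.85 to 0.26, edgeR adjusted *P* = 0.929) with all libraries and 0.0035 without 388_4. In this gene 263 exonic bases, 8.55% of the total, are shared with *Thra* on the opposite strand, which was counted at 6.80 to 10.1 CPM. Since the strand setting of the read counting is not given in the sources used here, reads from the shared stretch cannot be told apart.

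*Nr1d2*, the REV-ERB beta gene (ENSMUSG00000021775.11, chr14:18204054-18239127, reverse strand), had nearly equal means in the groups. They were 57.5 ± 6.30 CPM with PBS and 57.5 ± 7.51 CPM with GA (SD, n = 5 each), with a log2 fold change of 0.0015 (95% interval -0.22 to 0.22, edgeR adjusted *P* = 0.998). It was the best counted clock gene, with 1567 to 2361 reads per library. The lowest GA library was 394_1 at 47.0 CPM and the highest 400_1 at 68.2 CPM, the library that was lowest in *Per1*, *Arntl* and *Clock*.

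*Dbp*, the output gene (ENSMUSG00000059824.12, chr7:45705088-45710203, forward strand), had 8.98, 12.3, 11.9, 12.6 and 12.8 CPM in the PBS libraries, 10.01 and 10.36 CPM in those of prefix 394, and 11.7, 11.95 and 11.81 CPM in those of prefix 400. The 3 libraries of prefix 400 were close to each other and above both of prefix 394, and PBS library 388_1 was below all others. The group means were 11.7 ± 1.57 and 11.2 ± 0.909 CPM (SD, n = 5 each), and the log2 fold change was -0.07 (95% interval -0.34 to 0.20, edgeR adjusted *P* = 0.971). *Dbp* shares 539 exonic bases, 18% of its total, with *Sphk2* on the opposite strand. *Sphk2* was counted at 58.7 to 77.9 CPM, and the part of its reads in the *Dbp* level was not tested.

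**Figure D2:**
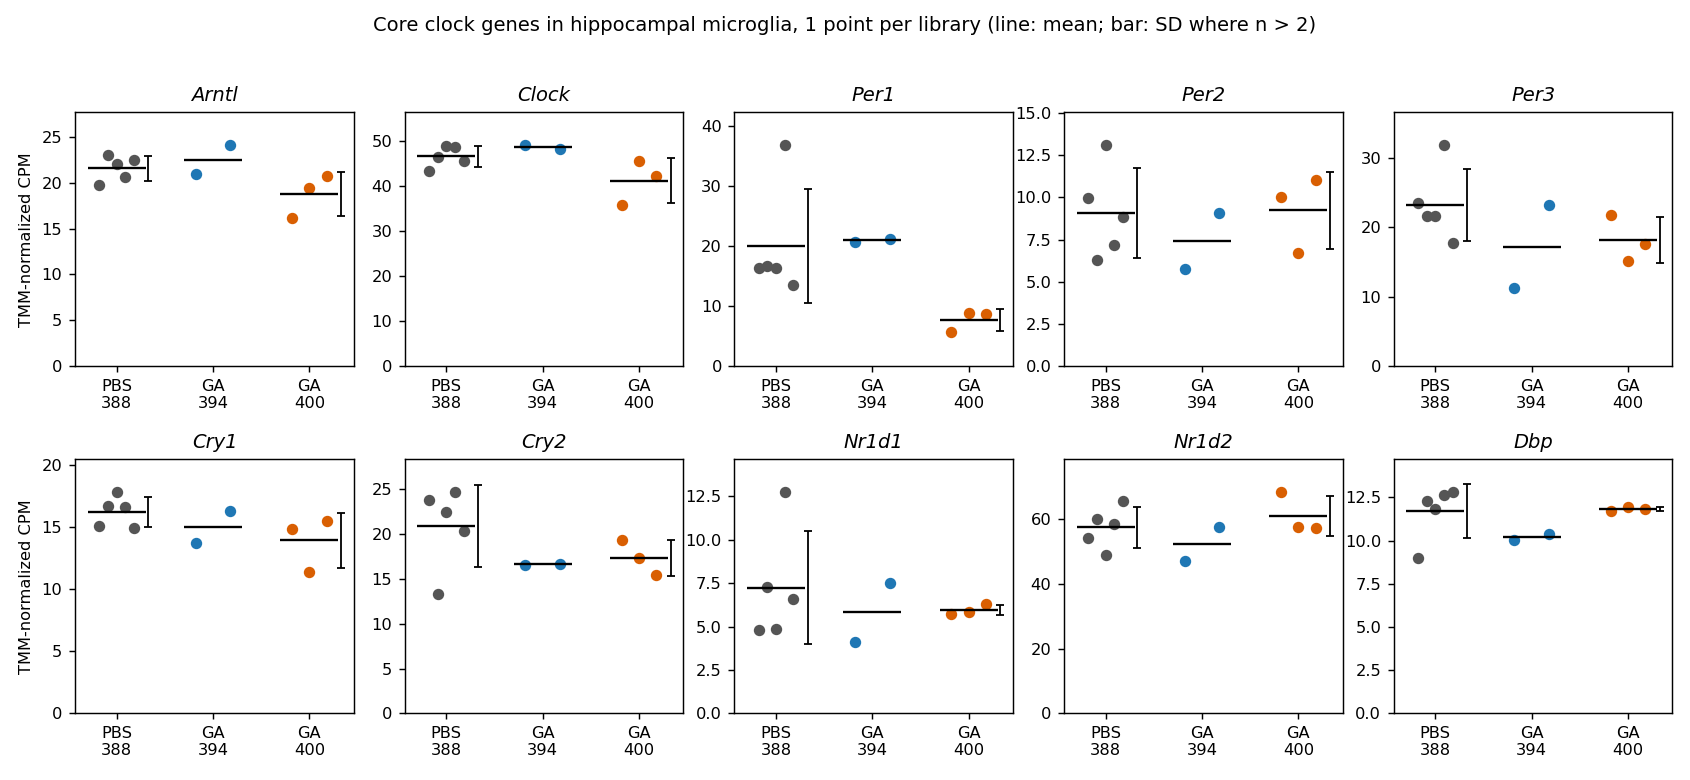
TMM-normalized CPM (vertical axes, each from 0) of the 10 core clock genes, 1 point per library, for the 5 PBS libraries (prefix 388), the 2 GA libraries of prefix 394 and the 3 of prefix 400; horizontal lines are means and bars the SD where a group has more than 2 libraries. In *Per1* the libraries of prefix 400, at 5.66 to 8.89 CPM, are below all others, and PBS library 388_4, at 36.8 CPM, is above all others.

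The members were then set side by side by title prefix, the contrast from which they were chosen. *Per1* averaged 21.0 CPM in the libraries of prefix 394 and 7.74 CPM in those of prefix 400, a log2 difference of -1.46 on the log2(CPM + 0.1) scale, and the ratio of these mean CPM values was 2.72. The log2 difference was -0.26 for *Arntl* and -0.25 for *Clock*, and without 400_1 it was -0.16 and -0.15. In all, 3 of the 10 genes had every library of prefix 400 below those of prefix 394, where 13.5% of all genes did, and 1 gene, *Dbp* with a log2 difference of 0.21, had them above, where 14.2% of all genes did. The other 6 genes overlapped, with log2 differences from -0.11 (*Cry1*) to 0.32 (*Per2*). As the prefixes were compared in choosing these genes, nothing is read from these shares. The sum of 6 astrocyte markers was also higher in the libraries of prefix 394 (326 to 354 CPM) than in those of prefix 400 (249.1 to 273 CPM) or with PBS (246 to 303 CPM), with 3 of the 6 averaging under 1 CPM. Other sums that did not overlap between the prefixes were those of 6 border-associated macrophage markers (47.3 to 81.9 CPM in prefix 394, 85.9 to 185 CPM in prefix 400), 6 endothelial markers (143 to 145 and 154 to 177 CPM) and 5 erythroid markers (1.14 to 2.44 and 0.347 to 0.760 CPM). *Itgam* was at 197 to 207 CPM in prefix 394 and 212 to 299 CPM in prefix 400. The part of these in the clock gene levels was not tested.

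Within the PBS group, the spread of the members differed widely. The SD of log2(CPM + 0.1) over the 5 PBS libraries was 0.564 for *Nr1d1* and 0.560 for *Per1*, above 82.1% and 81.9% of all genes tested. It was 0.107 for *Cry1*, 0.0923 for *Arntl* and 0.0707 for *Clock*, above only 11.2%, 7.3% and 3.1% of all genes. The remaining members lay between, from *Nr1d2* at 0.160 to *Per2* at 0.409.

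Library 388_4 accounted for much of this spread in 3 of the genes, since its level was 2.33 times the mean of the other PBS libraries for *Per1*, 2.16 times for *Nr1d1* and 1.51 times for *Per3*. Without it the SD was 0.143 for *Per1*, above only 31.2% of all genes, and 0.295 for *Nr1d1*, above 64.6%, whereas it was 0.434 for *Per2* and 0.378 for *Cry2*, which then had the largest spread of the group. For the other 7 genes the ratio ran from 0.751 (*Per2*) to 1.23 (*Cry2*). This is the library with low *Itgam* and high macrophage and monocyte marker sums, and their part in its clock gene levels was not tested.

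**Figure D3:**
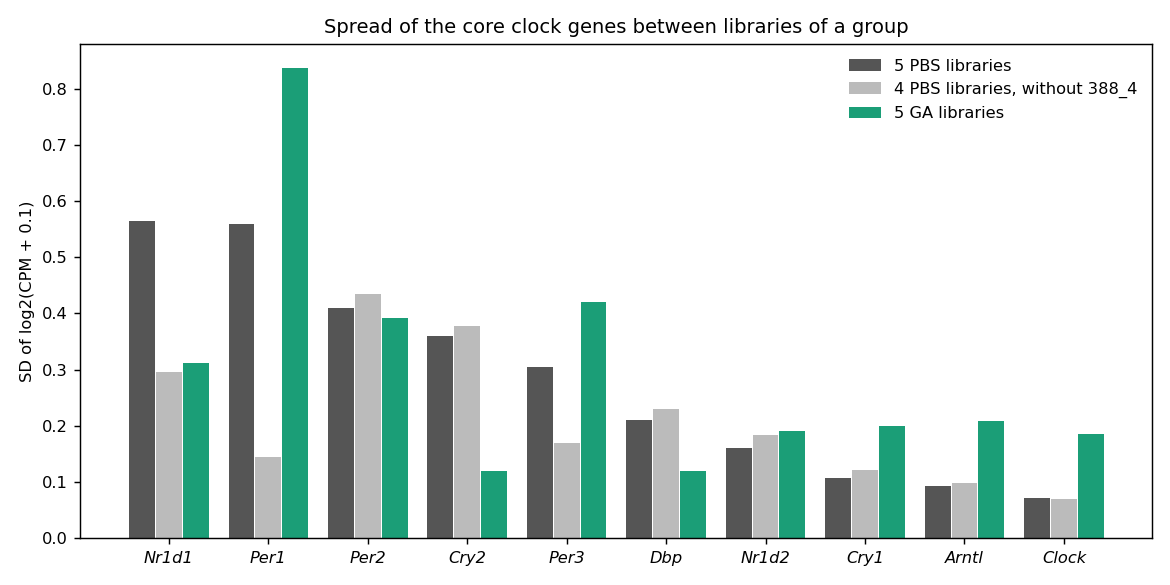
SD of log2(CPM + 0.1) between libraries (vertical axis, from 0) for each core clock gene, in the 5 PBS libraries (dark grey), in 4 PBS libraries without 388_4 (light grey) and in the 5 GA libraries (green). The *Per1* bar is 0.560 with PBS, 0.143 without 388_4 and 0.838 with GA, where the libraries of both title prefixes are joined, and *Clock* has the lowest bar in PBS.

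Of a list of 25 other genes of the clock and its regulators, 21 passed the filter and 0 were called for GA against PBS. At an unadjusted *P* under 0.05 (edgeR), 1 was higher and 1 lower with GA, or 2 of 21, against the 5.75% of all genes given above, and 11 of the 21 fold changes were above 0. *Nfil3*, a repressor at D-boxes that opposes DBP, had 12.6 to 15.7 CPM with PBS and 14.4 to 20.7 CPM with GA, with 4 GA libraries above every PBS library. Its log2 fold change was 0.31 (SE 0.121, edgeR adjusted *P* = 0.847), and the exact permutation test gave *P* = 0.0318.

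*Tef*, an activator of the same D-box family as *Dbp*, had 106, 118, 118, 129 and 122 CPM in the PBS libraries. With GA it had 82.4 and 92.7 CPM in the libraries of prefix 394 and 113, 90.2 and 107 CPM in those of prefix 400. All GA libraries but 400_1 and 400_3 were below every PBS library. The log2 fold change of *Tef* was -0.29 (SE 0.0879, edgeR adjusted *P* = 0.847), the exact permutation test gave *P* = 0.0238, and neither gene passed the adjustment over all genes.

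*Hlf*, the remaining D-box activator, averaged 13.8 ± 1.89 CPM with PBS and 11.9 ± 2.50 CPM with GA (SD, n = 5 each; edgeR adjusted *P* = 0.910). The receptor gene *Rora*, which activates *Arntl* through the element that REV-ERB proteins occupy, had 9.95 to 12.2 CPM in 4 PBS libraries, 19.7 CPM in 388_4 and 12.1 to 16.6 CPM with GA (edgeR adjusted *P* = 0.953). Its log2 fold change was 0.12 with all libraries and 0.32 without 388_4 (edgeR adjusted *P* = 0.998), where its unadjusted *P* was under 0.05. *Bhlhe40* and *Bhlhe41*, repressors at E-boxes, had log2 fold changes of 0.30 (edgeR adjusted *P* = 0.910) and -0.18 (edgeR adjusted *P* = 0.895). *Bhlhe40* averaged 14.6 ± 5.07 CPM with PBS and 17.9 ± 2.88 CPM with GA, and *Bhlhe41* 103 ± 11.4 CPM with PBS and 90.4 ± 13.4 CPM with GA (SD, n = 5 each). The repressor *Ciart* was low, at 1.84 ± 0.826 CPM with PBS and 1.601 ± 0.704 CPM with GA (edgeR adjusted *P* = 0.971).

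*Npas2*, which can replace *Clock* as the partner of *Arntl*, did not pass the filter. It had 0 counts in 5 libraries, which allows for up to 3 counts in each, and 1 to 16 counts in the other 5. *Arntl2* and *Rorb* did not pass either, with at most 11 counts in any library.

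Since *Per1* also responds to glucocorticoids and to immediate early signals, lists of genes known for these responses were read in the same libraries. Of 14 glucocorticoid-responsive genes, 11 passed the filter, 0 were called for GA against PBS, and 2 had an unadjusted *P* under 0.05 (edgeR), both lower with GA, against 5.75% of all genes. These were *Tsc22d3* (GILZ, a mediator of glucocorticoid action) with a log2 fold change of -0.46 (SE 0.193, edgeR adjusted *P* = 0.854; *P* = 0.103 in the exact permutation test) and *Cdkn1a* (the cell cycle inhibitor p21) with -0.32 (SE 0.149, edgeR adjusted *P* = 0.865; *P* = 0.119 in the exact permutation test). Without PBS library 388_4 neither had an unadjusted *P* under 0.05, with log2 fold changes of -0.31 and -0.22. Of 15 immediate early genes, 12 passed and 0 were called, with 0 at an unadjusted *P* under 0.05.

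By title prefix, 5 of the 11 glucocorticoid-responsive genes had every library of prefix 400 below both of prefix 394, against 13.5% of all genes, and 1, *Cdkn1a*, had them above, against 14.2% of all genes. *Fkbp5*, which encodes a chaperone of the glucocorticoid receptor, had 83.9 to 176 CPM with PBS, 260 and 247 CPM in 394_1 and 394_2, and 82.4, 69.0 and 88.7 CPM in the libraries of prefix 400. *Tsc22d3* had 106 to 187 CPM with PBS, 140 and 109 CPM in those of prefix 394, and 61.4, 85.6 and 89.1 CPM in those of prefix 400. As with *Per1*, the libraries of prefix 400 were below every PBS library for *Tsc22d3*, whereas for *Fkbp5* it was those of prefix 394 that were above every PBS library.

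The other 3 genes with the same order, named after their values were seen, were *Zbtb16*, *Ddit4* and *Dusp1*, with log2 differences between prefixes of -1.18, -1.22 and -1.14. The difference of *Ddit4* rested mainly on 394_1, at 26.55 CPM. It had 8.14 CPM in 394_2, close to the 4.622, 7.785 and 6.818 CPM of 400_1 to 400_3. *Sgk1*, a glucocorticoid-induced kinase, overlapped between the prefixes, with a log2 difference of -0.06. Of the 12 immediate early genes, 4 had all libraries of prefix 400 below those of prefix 394 and 0 had them above, against the same 13.5% and 14.2% of all genes. These 4, also named after their values were seen, were *Jun* (-1.17), *Ier2* (-0.70), *Nr4a2* (-0.75) and *Sik1* (-0.53), while *Fos*, *Egr1* and *Nr4a1* overlapped. *Sik1* had only 14 and 12 reads in prefix 394, and 7, 11 and 8 in prefix 400. *Nr4a2* had 35 and 35 reads against 20, 36 and 12, so that it separated only after scaling (0.982 CPM in 394_2, 0.944 CPM in 400_2). *Jun* differed within prefix 394, at 275 CPM in 394_1 and 509 CPM in 394_2, against 159.5 to 175.5 CPM in prefix 400. The prefixes were compared with *Per1* already known to differ, and no test was made of these lists.

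In PBS library 388_4, where *Per1* was 2.33 times the mean of the other PBS libraries, *Dusp1* was 3.87 times, *Zbtb16* 4.38 times, *Fkbp5* 1.61 times, *Tsc22d3* 1.56 times and *Sgk1* 1.61 times that mean. *Fos* was 2.81 times the mean and *Egr1* 1.09 times. Others went the other way, with *Nr4a2* at 0.118 times, *Egr2* at 0.300 times, *Ddit4* at 0.662 times and *Errfi1* at 0.784 times the mean, named after their values were seen. In all, 388_4 was above the mean of the other PBS libraries in 8 of the 10 core clock genes, 9 of the 11 glucocorticoid-responsive and 8 of the 12 immediate early genes, against 49.1% of all genes tested. The 8 clock genes include *Per1*, *Nr1d1* and *Per3*, already named as high in this library. *Nr1d2* (1.02 times), *Cry1* (1.03 times), *Clock* (1.06 times) and *Dbp* (1.10 times) were close to the mean.

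**Figure D4:**
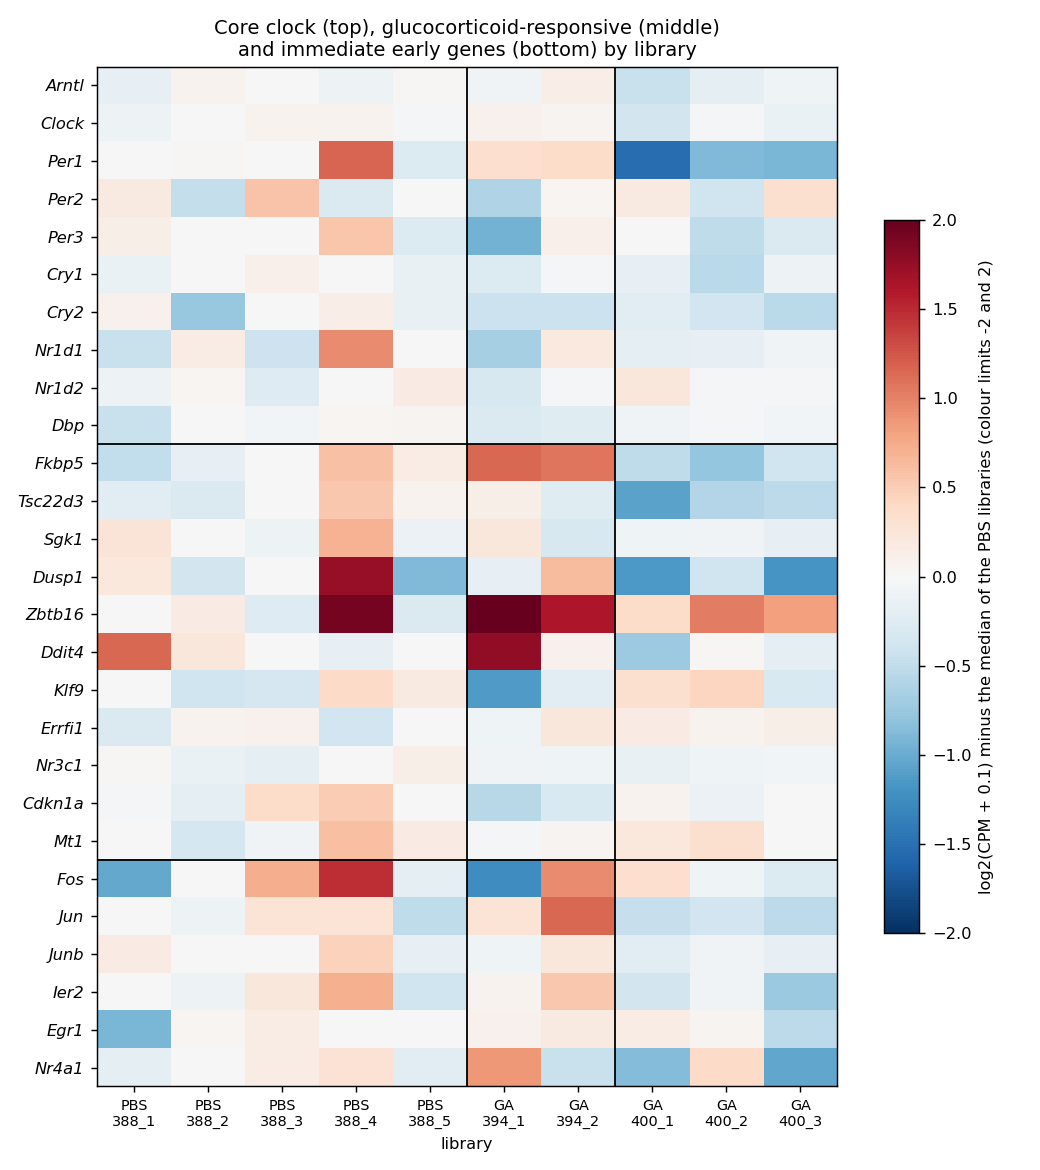
Level of the core clock genes (top block), glucocorticoid-responsive genes (middle) and 6 immediate early genes (bottom) in each of the 10 libraries, as log2(CPM + 0.1) minus the median of the PBS libraries, with colours limited to -2 and 2. The 6 immediate early genes are a part of the 12 that passed the filter. Not drawn are the 4 that were below the mean of the other PBS libraries in 388_4: *Nr4a2*, *Egr2*, *Crem* and *Atf3*. The *Per1* row is red in 388_4 and blue in the 3 libraries of prefix 400, *Dusp1* and *Zbtb16* are also red in 388_4, and *Fkbp5* is reddest in the libraries of prefix 394.

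The genes most like *Per1*, *Arntl* and *Dbp* over the 10 libraries were taken by Pearson's r on log2(CPM + 0.1), as a description, since the points share the same libraries, title prefixes and depth. For *Per1* they were *Rev3l* (0.947), *Gm22146* (0.938), *E230029C05Rik* (0.930), *Gm45552* (0.927) and *Cspp1* (0.925), of 20 genes over 0.9. Without 388_4 their r was 0.920, 0.925, 0.895, 0.932 and 0.912 and their ranks were 14, 11, 31, 8 and 17, so that none was among the 5 most similar. *Tsc22d3* stood at rank 14 with r = 0.910 (0.858 without 388_4) and *Dusp1* at rank 45 with r = 0.873. Among the clock genes *Clock* was the most like *Per1*, at r = 0.820 and 0.856 without 388_4, but only at rank 134 among all genes tested. *Arntl* followed at 0.610 (rank 988), while *Per3* was at 0.334 (-0.036 without 388_4) and *Per2* at -0.322. These values include the contrast between prefixes on which *Per1* was chosen.

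For *Arntl* the most similar genes were *Kmt2c* (0.951), *AC132307.1* (0.929), *Herc4* (0.904), *Gm13291* (0.902) and *Sec24a* (0.897), and *Clock* was at 0.799 (rank 81). For *Dbp* they were *Zscan20* (0.921), *St8sia6* (0.919), *Ccdc47* (0.916), *Tgif1* (0.907) and *Nrp1* (0.907). Without 388_4 the ranks were 1, 5, 17, 19 and 12 for the genes named with *Arntl* and 5, 6, 9, 7 and 13 for those named with *Dbp*. The clock genes nearest to *Dbp* were *Nr1d1* at 0.541 and *Nr1d2* at 0.492, only at ranks 869 and 1190 among all genes tested, and *Arntl* was at 0.050.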

How the data were processed

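Bulk RNA-seq libraries of sorted CD45int CD11b+ hippocampal microglia were made with the SMARTer Ultra Low Input v4 and Nextera XT kits and sequenced as 100-nt single reads. The authors deposited raw counts of reads per gene as whole numbers, without normalization. The submitters' processing notes name bcl2fastq 2.19.0, fastp 0.20.0, STAR 2.7.0f, Subread 1.6.4, featureCounts, DESeq2 and GRCm38.p6; their settings, strand included, are not given in the sources used here. Treatment came from the sample labels, and 0 columns had no sample.

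Counts were filtered with filterByExpr (minimum count 10), scaled by TMM and tested for GA against PBS in all 10 libraries with edgeR's quasi-likelihood test (edgeR 4.0.16, R 4.3.3), with Benjamini-Hochberg adjustment over 14481 genes and a threshold of 0.05. Single genes were also compared by two-sided exact permutation tests of mean log2(CPM + 0.1). The script was tested on simulated data. Differences between libraries exceeded counting noise in every pair (chi-square per degree of freedom of at least 14.03). Floors cover counting error only, as the amplified reads carry no molecular identifiers. Gene positions and exon lengths come from the GENCODE annotation on GRCm38.

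The members and gene lists were chosen with earlier results of these data known. The values of 1 listed gene are not reported here. Named genes are the 10 members; *Npas2*, *Rora*, *Nfil3*, *Tef*, *Hlf*, *Bhlhe40*, *Bhlhe41* and *Ciart*; *Fkbp5*, *Tsc22d3* and *Sgk1*; *Fos*, *Nr4a1* and *Egr1*; other listed genes with an unadjusted p-value under 0.05; the 5 genes most like *Per1*, *Dbp* and *Arntl*; and *P2ry12*, *Ptprc* and *Itgam*. Alternatives were DESeq2 1.42.0 with and without its filters, limma-voom (limma 3.58.1), DESeq2 size factors, other filters, other pseudocounts, a replicate block, the GA libraries of 1 prefix, and each library left out in turn. For the similar genes, leaving out 388_4 and a pseudocount of 1 CPM were added after seeing the data.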

Additional observations from a re-analysis of the deposited data

Results flagged for a closer look

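In the 5 libraries of each treatment, 27 named genes were examined for a library far from the rest (Dixon's test at 95%), and 7 of 54 groups had one, where chance gives about 1 in 20 groups. Among the clock genes there were 2 in 20 groups. *Per1* was 36.8 CPM in PBS library 388_4, where the other PBS libraries had 13.6 to 16.8 CPM, and *Dbp* was 8.98 CPM in PBS library 388_1, where the others had 11.9 to 12.8 CPM. Library 388_4 also stood apart in *Rora* (19.7 CPM, others 9.95 to 12.2 CPM) and *Itgam* (88.7 CPM, others 191 to 233 CPM). *Egr1* was low at 22.6 CPM in PBS library 388_1 (others 42.5 to 47.7 CPM) and at 29.8 CPM in GA library 400_3 (others 44.5 to 48.7 CPM). *Ptprc*, the CD45 gene of the sort, was 592 CPM in GA library 394_2, where the other GA libraries had 535 to 541 CPM.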

How the results depend on the processing

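None of the 10 core clock genes and none of the other clock genes was called in any of the 19 alternatives. Over all genes, DESeq2 called 2 genes with its defaults and 3 without its filters, and leaving out 1 library gave 0 to 1. The number of core clock genes with an unadjusted p-value under 0.05 was 1 with DESeq2 under both settings (*Per3*), 1 without a filter on low counts (*Per3*) and 1 with the GA libraries of prefix 400 alone (*Per1*, the gene chosen on that prefix), and 0 to 2 when 1 library was left out. Over all genes it was 1245 of 27495 with DESeq2's defaults and 1252 of 27564 without its filters. Without a filter on low counts it was 1901 of 27564, and with prefix 400 alone 977 of 15108. When 1 library was left out, 595 to 1137 of all genes had such a p-value. Of 190 fold changes of the members under alternatives, 173 kept their direction and side of the threshold and 17 reversed. The cause was not tested.

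With the GA libraries of prefix 394 alone, the log2 fold change reversed to 0.081 for *Per1*, 0.064 for *Arntl*, 0.068 for *Clock*, -0.13 for *Nr1d2* and 0.34 for *Nr4a1*. With those of prefix 400 alone it reversed to 0.032 for *Per2*, 0.020 for *Dbp* and -0.61 for *Fkbp5*. *Nr1d2*, near 0 throughout, was -0.0008 with limma-voom, -0.0007 with DESeq2 size factors and -0.0024 with at least 10 counts in every library.

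With the number at the end of the title as a replicate block, 0 genes were called, and *Nr1d1* (0.063), *Dbp* (0.044) and *Fos* (0.18) reversed; the libraries share only a number. *Tef* (-0.22), *Tsc22d3* (-0.24) and *Cdkn1a* then had no unadjusted p-value under 0.05, and *Bhlhe40* (0.66) and *Bhlhe41* (-0.23) had one. No adjusted call changed.

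Leaving out 1 library gave ranges of -0.86 to -0.28 for *Per1*, -0.50 to -0.25 for *Per3*, -0.23 to -0.099 for *Cry1*, -0.42 to -0.23 for *Cry2*, -0.16 to -0.015 for *Arntl*, -0.12 to -0.0051 for *Clock*, -0.15 to -0.029 for *Dbp*, 0.043 to 0.32 for *Rora* and 0.11 to 0.46 for *Bhlhe40*, with no change of direction. The direction turned within the ranges of *Per2* from -0.20 to 0.08, *Nr1d1* from -0.41 to 0.0035, *Nr1d2* from -0.062 to 0.067, *Ciart* from -0.36 to 0.11, *Fkbp5* from -0.0076 to 0.48, *Fos* from -0.67 to 0.10, *Egr1* from -0.037 to 0.22 and *Nr4a1* from -0.40 to 0.12. The log2 difference between prefixes ran from -0.36 to -0.16 for *Arntl*, from -0.32 to -0.15 for *Clock*, from 0.080 to 0.37 for *Nr1d2*, from -0.010 to 0.64 for *Per2*, from -0.24 to 0.023 for *Cry1*, from -0.028 to 0.14 for *Cry2*, from -0.37 to 0.68 for *Per3*, from -0.34 to 0.52 for *Nr1d1* and from 0.19 to 0.24 for *Dbp*. With 5 libraries per group, the 95% interval of *Per1* ran from -1.38 to 0.15, the widest of the members.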
